A study of Mus musculus with 9 samples.

Results

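The genes described are mouse adhesion G protein-coupled receptors and receptors that carry Gpr numbers, most of them orphans, meaning receptors with no settled ligand when they were named. Members were taken from a table of raw counts by symbol (Gpr followed by a number, Adgr with its letter and number, Lphn or Celsr) and needed at least 10 counts summed over all 9 libraries. The rule found 72 of the 24503 genes in the table, 20 with adhesion receptor symbols (Adgr or Celsr) and 52 with Gpr numbers, and used no difference between groups. A further 32 matching symbols were under the minimum, 10 of them at 0 in every library. Gpr52, with 9 counts in all, lay just outside, while Adgrf3 and Gpr183, with 10 each, lay just inside.

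The cells were primary neural stem cells of mouse cortex, taken from E13.5 embryos, enriched as neurospheres and then grown on laminin (5 µg/mL) with FGF (10 ng/mL) and EGF (20 ng/mL). All groups carried a homozygous floxed Phf2 allele on an otherwise wild-type background, and none is labelled as having received Cre. The groups were shRad21_1 and shRad21_2, infected with virus carrying 1 of 2 short hairpin RNAs against Rad21, a subunit of the cohesin ring that holds DNA loops and sister chromatids, and shNT, infected with a non-targeting hairpin. Each group had 3 libraries, and the labels give no time from infection to harvest. Whether the libraries of a group came from separate cultures is not stated, so p-values measure the spread between these libraries, which may be technical.

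Adhesion receptors join a long extracellular part, built of domains that bind neighbouring cells or matrix, to a seven-helix membrane part, and many cut themselves next to the membrane so that a tethered peptide can activate the receptor. In the developing cortex, members of this family take part in anchoring the end-feet of radial glia, in planar polarity, in neuronal migration and in synapse formation. The Gpr-numbered genes are a mixed group: rhodopsin-type orphans, glutamate-receptor-type orphans that act as scaffolds, and membrane proteins of the Golgi and lysosome that carry the name but are not known to signal as classical receptors. Both kinds signal, where they do, through heterotrimeric G proteins, whose activity is shut off by RGS proteins and whose receptors are silenced by receptor kinases and arrestins.

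Total counts ran from 34780003 to 46644607 per library, and the members together took 0.148% to 0.196% of them. Levels are CPM, read counts relative to library totals adjusted by TMM, a scaling method, and 3 counts corresponded to 0.0643 to 0.0863 CPM. Rad21 stood at 187, 174 and 178 CPM with shRad21_1, 82.0, 91.2 and 82.5 CPM with shRad21_2 and 531, 449.8 and 456 CPM with shNT. It fell with both hairpins (-1.41 ± 0.09, adjusted p = 1.66e-04 with shRad21_1 and -2.49 ± 0.09, adjusted p = 2.83e-07 with shRad21_2, log2 fold change ± SE, edgeR) and was lower with shRad21_2 than with shRad21_1 (-1.08 ± 0.09, adjusted p = 5.55e-05). The summed level of 12 neural stem cell markers was 8051, 9697 and 9734 CPM with shRad21_1, 8699, 7823 and 8382 CPM with shRad21_2 and 10012, 10219 and 10242 CPM with shNT. Of the 12, 3 rose and 5 fell with shRad21_2, Nes among those that rose (1.03 ± 0.17, adjusted p = 0.00116) and Slc1a3 among those that fell (-0.95 ± 0.12, adjusted p = 1.99e-04), and 1 rose and 1 fell with shRad21_1. Of 10 microglial markers, Aif1 and Cx3cr1 were at 0 in every library and 1 could be tested. That 1, P2ry12, averaged 1.68 ± 0.673 CPM in shRad21_1, 0.424 ± 0.152 CPM in shRad21_2 and 2.20 ± 0.726 CPM in shNT, and fell with shRad21_2 (-2.37 ± 0.40, adjusted p = 0.00118). The first shRad21_1 library stood apart from the other 2 of its group: it was more than 1.5-fold below both in 14 of 53 members and more than 1.5-fold above both in 5. The summed level of 10 astrocyte markers was 503, 904 and 906 CPM with shRad21_1, 356, 328 and 339 CPM with shRad21_2 and 1056, 1140.0 and 1109 CPM with shNT. It was lower in every hairpin library than in every shNT library, and within shRad21_1 lowest in the first library. In bulk RNA, fewer cells of a type and less RNA per cell cannot be told apart.

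Per kilobase of exon, which allows levels of different genes to be compared, 5 adhesion receptors stood at the top of the 72 members by the mean over all 9 libraries. Adgrg1, known as GPR56, a collagen-binding receptor needed for normal cortical layering, had the highest mean level, 49.9 ± 3.68 CPM per kilobase in shRad21_1, 57.7 ± 2.09 in shRad21_2 and 72.5 ± 5.81 in shNT (SD, n = 3 each). Adgrb2, a brain-enriched receptor of the BAI subfamily, came next with 32.9 ± 12.2 CPM per kilobase in shRad21_1, 28.4 ± 0.0893 in shRad21_2 and 50.6 ± 4.67 in shNT. Adgrl1, Adgra2 and Adgre5 followed with means over all 9 libraries of 22.5, 21.9 and 16.3 CPM per kilobase. In shNT, Adgrl1 at 19.5 ± 1.13, Adgra2 at 16.7 ± 1.29 and Adgre5 at 17.3 ± 2.98 CPM per kilobase lay close together. The SD ranges of Adgra2 and Adgre5 overlapped, and those of Adgrl1 and Adgra2 did not. Gpr162 was level with Adgra2 and Adgre5 in shNT, at 16.6 ± 1.51 CPM per kilobase. In shRad21_1, Adgre5 at 9.62 ± 0.188 lay below Gpr180 at 13.8 ± 0.879, Gpr162 at 12.3 ± 4.41 and Gpr137 at 11.4 ± 0.743 CPM per kilobase, with SD ranges that overlapped for Gpr162 and not for Gpr180 or Gpr137.

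**Figure D1:**
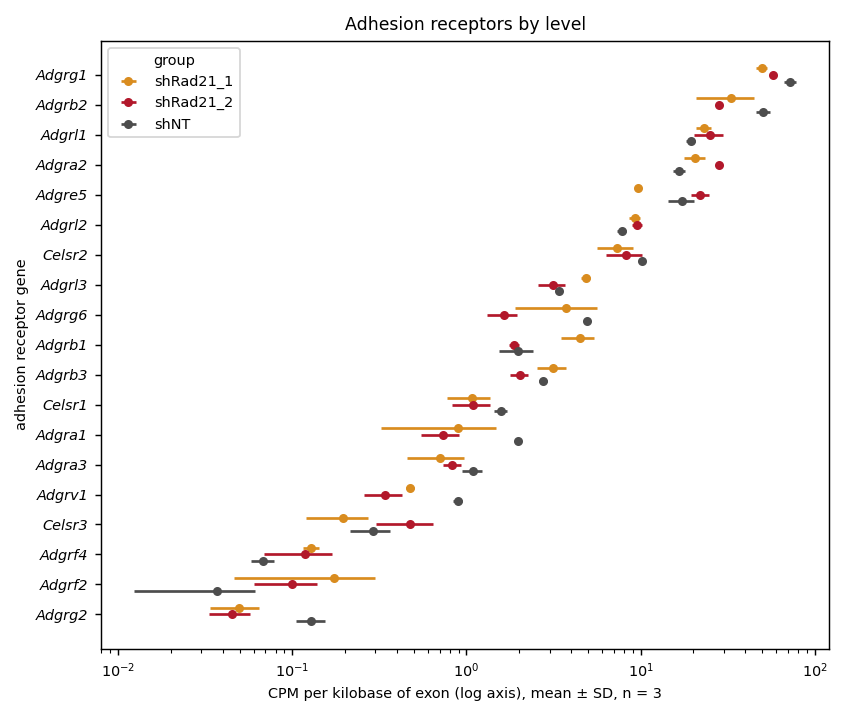
Level of the 19 tested adhesion receptors (rows, ordered by mean level) in CPM per kilobase of exon on a log axis; points are group means and bars SD (n = 3) for shRad21_1, shRad21_2 and shNT, drawn from top to bottom within a row. Adgrg1 stands highest and Adgrg2 lowest, and the shNT point lies right of both hairpin points for Adgrg1, Adgrb2, Adgrg6, Adgrv1 and Adgrg2.

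Of the 72 members, 53 passed the filter on low counts and were tested. Of these, 6 reached its level of 0.271 CPM in 2 groups only, and Gpr158 in shNT only. Gpr17, Gpr37l1 and Gpr55, among the 6, reached it in shNT and shRad21_1 and not in shRad21_2. Their falls with shRad21_2 are therefore in part built into their being tested. This holds too for the falls of Adgrg2 with both hairpins, given below. Fold changes are log2 values ± the standard error (SE) of the fit, and a gene was called, here written as rose or fell, where the edgeR adjusted p over 13560 genes was under 0.05. With shRad21_2, 4 members rose and 24 fell against shNT (7.55% and 45.3%), against 21.1% and 22.5% of all genes tested. With shRad21_1, 2 members rose and 6 fell (3.77% and 11.3%), against 4.19% and 5.63% of all genes. Between the hairpins, 3 members were higher and 15 lower with shRad21_2 than with shRad21_1 (5.66% and 28.3%), against 11.9% and 14.4% of all genes. In each comparison the members that fell thus made up a larger share than over all genes. Those that rose made up a smaller share with shRad21_2 against shNT and between the hairpins. With shRad21_1 against shNT, the share that rose was near that over all genes. This describes the counts, and the difference in shares was not tested. The members' median log2 fold change was -0.38 for shRad21_2 over shNT, -0.15 for shRad21_1 over shNT and -0.15 for shRad21_2 over shRad21_1, against 0.01, 0.01 and -0.00 over all genes tested. In both comparisons with shRad21_2, Gpr17 at its bound still lay below the members' median, so its uncertain value could not move the medians. The comparisons share libraries and are not independent.

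The calls in shRad21_1 depended on the libraries taken as replicates. Without the first shRad21_1 library, 10 members fell against shNT in place of 6, while 6.97% of all genes fell in place of 5.63%. Without shNT replicate 1, 2 or 3 or without shRad21_1 replicate 2, 1 member rose in place of 2. In these fits 2.74%, 1.31%, 1.26% and 2.5% of all genes rose, in place of 4.19%. With shRad21_2, 2 members rose in place of 4 without shNT replicate 3, while 14.18% of all genes rose in place of 21.1%. Replicates 2 and 3 of shNT, and those of shRad21_1, differed from each other less than other pairs did. With each such pair summed as 1 library, none of the 53 members was called in shRad21_1 against shNT in either direction (edgeR, where the same fit called 0.953% of all genes). Between the hairpins, 1 member was then higher and 7 lower, against 2.56% and 6.75% of all genes. At an unadjusted p under 0.05, the fit on all 9 libraries had 19 members in shRad21_1 against shNT, 31 in shRad21_2 against shNT and 24 between the hairpins (35.8%, 58.5% and 45.3% of the 53), against 26.5%, 52.1% and 39.5% of all 13560 genes.

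**Figure D2:**
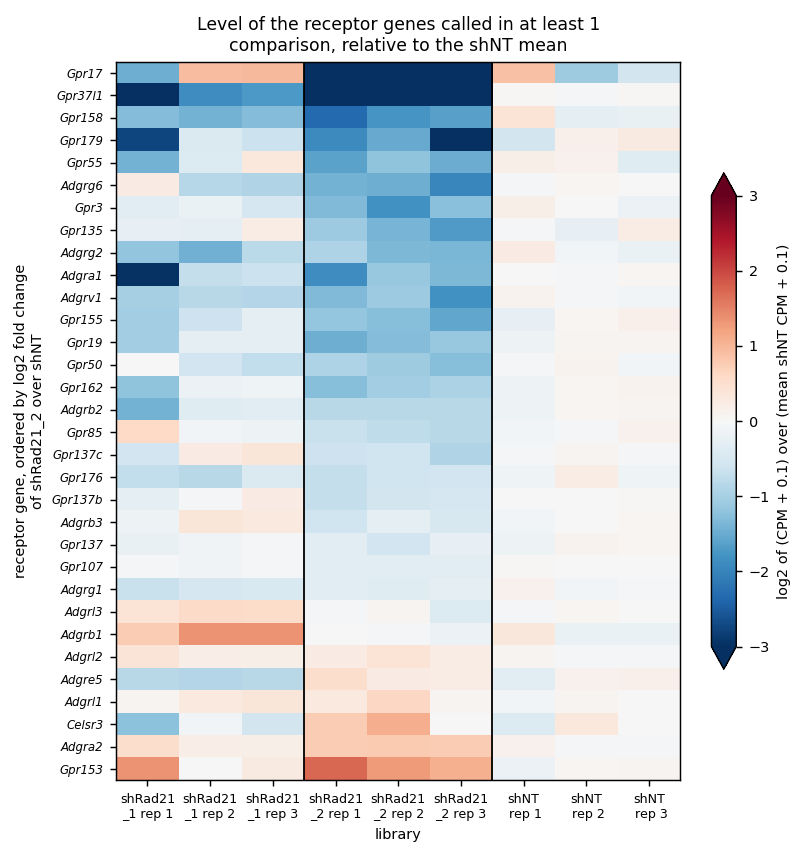
Level of the members called in at least 1 comparison (rows, ordered by fold change) in each library (columns), as log2 of CPM + 0.1 over the shNT mean + 0.1; blue is below and red above the shNT mean, and the scale is capped at 3 in either direction. The shRad21_2 columns are blue in the upper rows, led by Gpr17 and Gpr37l1, and the first shRad21_1 column differs from the other 2 in several rows.

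Promoter sequences of 4 members are given because cohesin often stops at sites bound by CTCF, and because these genes were among the members that fell with shRad21_2. Each is the 250 bases before the gene's RefSeq start, from the RefSeq table of build GRCm38.p6, read 5′ to 3′ on the gene's strand, with a match on either strand to the CTCF core motif in capitals. The motif was searched as CC, any 3 bases, AGG, any base, then GGC.
Adgrb2 (chr4:129984620-129984869, plus strand): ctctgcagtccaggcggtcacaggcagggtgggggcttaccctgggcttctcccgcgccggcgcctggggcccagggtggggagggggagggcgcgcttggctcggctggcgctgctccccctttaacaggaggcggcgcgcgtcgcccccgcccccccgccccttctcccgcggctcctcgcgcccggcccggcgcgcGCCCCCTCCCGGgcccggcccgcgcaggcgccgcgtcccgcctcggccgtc
Adgrb3 (chr1:25829708-25829957, minus strand): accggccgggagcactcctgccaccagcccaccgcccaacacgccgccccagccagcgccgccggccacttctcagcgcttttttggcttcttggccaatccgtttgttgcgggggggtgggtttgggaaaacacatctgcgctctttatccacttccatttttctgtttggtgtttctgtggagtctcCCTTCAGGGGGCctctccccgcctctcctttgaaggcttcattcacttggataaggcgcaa
Gpr37l1 (chr1:135167682-135167931, minus strand): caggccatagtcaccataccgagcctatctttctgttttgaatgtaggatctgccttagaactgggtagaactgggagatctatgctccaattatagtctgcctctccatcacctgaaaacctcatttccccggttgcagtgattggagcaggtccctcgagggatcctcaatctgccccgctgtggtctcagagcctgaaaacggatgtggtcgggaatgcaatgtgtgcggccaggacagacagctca
Adgrg6 (chr10:14545037-14545286, minus strand): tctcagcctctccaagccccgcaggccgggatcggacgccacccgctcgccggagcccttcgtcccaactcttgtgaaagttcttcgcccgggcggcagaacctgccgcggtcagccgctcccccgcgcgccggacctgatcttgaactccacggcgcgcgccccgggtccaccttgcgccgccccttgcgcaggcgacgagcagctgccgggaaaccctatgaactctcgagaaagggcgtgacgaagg
Adgrb2 and Adgrb3 were the only 2 of 50 members with a promoter in the table that held a match in this window (4%), against 917 of 27025 genes (3.39%), so the share was near the background. Gpr37l1 and Adgrg6, with the larger falls, held none. The Adgrg6 window lies inside the gene as GENCODE places it (chr10:14402583-14545659, minus strand). It thus does not cover the bases before that start. The cAMP response element TGACGTCA was in 0 of 50 members, against 1.77% of all genes, and the E-box CACGTG in 1, Gpr63, against 6.86%, both palindromes that do not overlap the CTCF letters. The members had a median of 12.5 CpG dinucleotides in the window, against 6 over all genes. The all-gene set, here and for the motifs, had no count minimum, and the 9 matched members too low to test had a median of 6. A match is a run of letters, not a site, and no match says nothing of a factor's binding elsewhere.

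Among members with counts in every group, the largest fall was that of Gpr37l1, an astrocyte-enriched receptor for which prosaposin-derived peptides have been proposed as ligands (chr1:135160234-135167681, minus strand, GRCm38). It stood at 0.979, 3.55 and 3.94 CPM with shRad21_1, 0.244, 0.176 and 0.171 with shRad21_2 and 13.47, 12.6 and 13.7 with shNT. Every library of both hairpins lay below every shNT library, the shRad21_2 libraries lowest, and the first shRad21_1 library was the lowest of its group. The log2 fold change was -6.03 ± 0.51, adjusted p = 2.33e-05 with shRad21_2 and -2.23 ± 0.38, adjusted p = 0.00729 with shRad21_1, and -3.80 ± 0.52, adjusted p = 9.06e-04 between the hairpins. Gpr37l1 was the only member that passed the edgeR test in all 3 comparisons in the fit on all 9 libraries; with close libraries summed, the call of shRad21_1 against shNT was lost. Of 9 tested astrocyte markers, 7 fell with shRad21_2 (median log2 fold change -2.55) and 0 with shRad21_1. Gfap, a defining astrocyte marker, was at 0.190, 14.6 and 15.1 CPM with shRad21_1, 0, 0.0293 and 0.0856 CPM with shRad21_2 and 4.62, 8.59 and 10.5 CPM with shNT, so that shRad21_1 replicates 2 and 3 lay above every shNT library. The part of these cells in the fall of Gpr37l1 was not tested. Its paralogue Gpr37, known from oligodendrocytes, was too low to test, with 20 counts summed over shRad21_1, 22 over shRad21_2 and 47 over shNT.

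Gpr17, a receptor of committed oligodendrocyte precursors that holds back their maturation, was not detected with shRad21_2. Its counts were 9, 64 and 66 in the shRad21_1 libraries, 0 in each of the 3 shRad21_2 libraries, and 60, 15 and 25 in the shNT libraries. Against a floor of 3 counts over the group, it was at least 30.8-fold lower in shRad21_2 than in shNT and at least 47.3-fold lower than in shRad21_1 (edgeR adjusted p = 0.00786 and 0.00926). Within shRad21_1 and within shNT the libraries differed several-fold, and the 2 groups overlapped. Of 9 tested oligodendrocyte lineage markers, 7 fell and 1 rose with shRad21_2. Sox10, a defining factor of the lineage, was near the floor in every group. Its counts were 0, 4 and 1 in shRad21_1, 0 in all shRad21_2 libraries and 4, 6 and 5 in shNT. The summed level of the 12 listed markers was 3163, 3341 and 3337 CPM in shRad21_1, 3149, 2746 and 2985 CPM in shRad21_2 and 2998, 2865 and 2900.1 CPM in shNT. Their part in the loss of Gpr17 counts was not tested.

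Among the adhesion receptors, 19 of 20 were tested. With shRad21_2, 3 rose and 7 fell (15.8% and 36.8%), against 21.1% and 22.5% of all genes. With shRad21_1, 2 rose and 4 fell (10.5% and 21.1%), against 4.19% and 5.63% of all genes. These differences in shares were not tested. All 3 tested receptors of the G subfamily fell with shRad21_2. Adgrg1 (chr8:94974751-95014217, plus strand) stood at 248, 279 and 285 CPM with shRad21_1, 309, 304 and 325 with shRad21_2 and 429, 371 and 379.6 with shNT. Every library of either hairpin lay below every shNT library, the shRad21_1 libraries lowest. The log2 fold change was -0.54 ± 0.08, adjusted p = 0.00469 with shRad21_1 and -0.33 ± 0.08, adjusted p = 0.0097 with shRad21_2, and the hairpins did not differ past the threshold (0.21 ± 0.08, adjusted p = 0.088). Adgrg6, known as GPR126 and needed in Schwann cells for myelination (chr10:14402583-14545659, minus strand), stood at 71.8, 33.2 and 32.1 CPM with shRad21_1, 22.7, 21.8 and 15.4 with shRad21_2 and 58.1, 63.1 and 60.3 with shNT. The shRad21_2 libraries lay below all others, while the first shRad21_1 library was the highest of all 9. The fall with shRad21_2 was -1.60 ± 0.29, adjusted p = 0.00166, and the value with shRad21_1, which was not called, -0.41 ± 0.28, adjusted p = 0.395. The hairpins differed (-1.19 ± 0.28, adjusted p = 0.0135). That difference was -0.71 without shRad21_1 replicate 1 and was no longer called at -1.04 without shRad21_2 replicate 3. Adgrg2, best known from the epididymis, was low, with 0.245, 0.187 and 0.346 CPM with shRad21_1, 0.310, 0.205 and 0.200 with shRad21_2 and 0.825, 0.637 and 0.577 with shNT. It was called lower with both hairpins (-1.47 ± 0.37, adjusted p = 0.00933 with shRad21_2, -1.37 ± 0.37, adjusted p = 0.0421 with shRad21_1). All shNT libraries reached the 0.271 CPM of the filter on low counts. Of the hairpin libraries, only the third of shRad21_1 and the first of shRad21_2 did. Adgrg2 thus passed through shNT, and its falls are in part built into its being tested. The shRad21_1 call was lost without any single library of shNT or shRad21_1 and without shRad21_2 replicate 2 or 3 (values -1.64 to -1.19). It was also lost with the replicate number as a block (log2 fold change -1.37; adjusted p between 0.0392 and 0.189 over the alternatives).

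The BAI subfamily, adhesion receptors with thrombospondin repeats that recognise apoptotic cells or shape synapses, differed between the hairpins in 2 of 3 genes. Adgrb1, a receptor for phosphatidylserine on dying cells (chr15:74516195-74589465, plus strand), stood at 24.3, 36.2 and 36.4 CPM with shRad21_1, 14.3, 13.7 and 12.7 with shRad21_2 and 17.9, 12.4 and 12.4 with shNT. All 3 shRad21_1 libraries lay above all others, while shRad21_2 and shNT overlapped. It rose with shRad21_1 (1.18 ± 0.19, adjusted p = 0.00513), was near shNT with shRad21_2 (-0.07 ± 0.19, adjusted p = 0.791) and was lower with shRad21_2 than with shRad21_1 (-1.25 ± 0.19, adjusted p = 0.00147). Adgrb2 (chr4:129984870-130022633, plus strand) stood at 122.7, 255 and 263 CPM with shRad21_1, 185, 183 and 184 with shRad21_2 and 294, 343 and 349 with shNT. All hairpin libraries lay below the shNT libraries, the first shRad21_1 library lowest. Its upstream window, like that of Adgrb3, held a match to the CTCF letters. The fall was called with shRad21_2 (-0.84 ± 0.23, adjusted p = 0.0148) and not called with shRad21_1 (-0.62 ± 0.23, adjusted p = 0.117). Adgrb3, which binds C1q-like proteins at synapses (chr1:25067476-25829707, minus strand), stood at 45.8, 65.8 and 63.1 CPM with shRad21_1, 33.7, 42.5 and 36.4 with shRad21_2 and 48.4, 51.7 and 53.2 with shNT. The shRad21_2 libraries lay below all others, and shRad21_1 overlapped shNT. Adgrb3 fell with shRad21_2 (-0.45 ± 0.14, adjusted p = 0.0256) and was lower there than with shRad21_1 (-0.63 ± 0.14, adjusted p = 0.00939). The fall against shNT was not called without shNT replicate 2 or 3 (-0.44 and -0.42) or without shRad21_2 replicate 1 or 3 (-0.37 and -0.42).

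The latrophilins Adgrl1, Adgrl2 and Adgrl3 bind teneurins and FLRT proteins across cell contacts and are known from synapse formation. Adgrl3 (chr5:81020138-81825133, plus strand) stood at 80.1, 89.3 and 88.3 CPM with shRad21_1, 57.4, 64.2 and 45.1 with shRad21_2 and 57.6, 62.4 and 60.8 with shNT, with all shRad21_1 libraries above all others. It rose with shRad21_1 (0.51 ± 0.12, adjusted p = 0.024), was near shNT with shRad21_2 (-0.12 ± 0.12, adjusted p = 0.446) and was lower with shRad21_2 than with shRad21_1 (-0.63 ± 0.12, adjusted p = 0.0046). The rise was not called without any single shNT library or without shRad21_1 replicate 2 or 3 (values 0.48 to 0.54). Adgrl2 stood at 143, 126 and 125 CPM with shRad21_1, 131, 146 and 129 with shRad21_2 and 117, 107 and 107 with shNT. Both hairpin groups lay above shNT in every library. The change with shRad21_2 was 0.29 ± 0.08, adjusted p = 0.0172 and with shRad21_1 0.25 ± 0.08, adjusted p = 0.0862. The shRad21_2 call was lost without shNT replicate 2 or 3 (0.27 for both) and with library totals in place of TMM scaling. Adgrl1 stood at 176, 205 and 214 CPM with shRad21_1, 206, 258 and 177 with shRad21_2 and 158, 177 and 166 with shNT. Its rise with shRad21_2 (0.36 ± 0.13, adjusted p = 0.0484) moved most with the second shRad21_2 library: without it the value was 0.20, and the call was lost on leaving out any of 6 other libraries too.

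Adgra2, known as GPR124, acts with Reck as the co-receptor that makes Wnt7a and Wnt7b signal in brain endothelium (chr8:27085583-27123436, plus strand). It stood at 138, 110.3 and 108 CPM with shRad21_1, 162, 166 and 163 with shRad21_2 and 105, 91.7 and 92.2 with shNT. Every hairpin library lay above every shNT library, and the shRad21_2 libraries above all. It rose with shRad21_2 (0.77 ± 0.10, adjusted p = 2.76e-04), was higher there than with shRad21_1 (0.46 ± 0.10, adjusted p = 0.00892) and was not called with shRad21_1 (0.30 ± 0.10, adjusted p = 0.0847). Its ligands Wnt7a and Wnt7b both fell with shRad21_2. Wnt7a was at 24.5 ± 9.14 CPM in shRad21_1, 3.34 ± 0.0988 CPM in shRad21_2 and 70.0 ± 8.05 CPM in shNT (SD, n = 3 each). Its log2 fold change was -1.51 ± 0.24, adjusted p = 0.00517 with shRad21_1 and -4.39 ± 0.28, adjusted p = 4.49e-06 with shRad21_2. Wnt7b was at 49.0 ± 19.2 CPM in shRad21_1, 4.91 ± 0.805 CPM in shRad21_2 and 55.8 ± 4.19 CPM in shNT, and fell with shRad21_2 (-3.50 ± 0.29, adjusted p = 2.12e-05). Adgra1, an orphan of the same subfamily, stood at 1.28, 6.43 and 6.81 CPM with shRad21_1, 2.88, 4.78 and 4.14 with shRad21_2 and 10.7, 10.2 and 11.1 with shNT. It fell with shRad21_2 (-1.45 ± 0.46, adjusted p = 0.0288), a call lost without any single shNT or shRad21_2 library (values -1.61 to -1.26). Adgra3 was not called in any comparison, with 3.40, 7.31 and 6.52 CPM with shRad21_1, 7.20, 5.87 and 7.16 with shRad21_2 and 7.84, 8.43 and 10.1 with shNT.

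Adgre5, known as CD97, a receptor for CD55 on leukocytes and many other cells (chr8:83723251-83741326, minus strand), lay on opposite sides of shNT with the 2 hairpins. It stood at 36.5, 35.4 and 36.7 CPM with shRad21_1, 93.8, 77.7 and 76.6 with shRad21_2 and 52.2, 71.3 and 71.9 with shNT. All shRad21_1 libraries lay below, and all shRad21_2 libraries above, every shNT library. It fell with shRad21_1 (-0.85 ± 0.13, adjusted p = 0.00453) and was higher with shRad21_2 than with shRad21_1 (1.19 ± 0.13, adjusted p = 2.60e-04). Against shNT, the value with shRad21_2 was 0.34 ± 0.13, adjusted p = 0.0505, which was not called. The antisense gene Ddx39 shares 23.8% of the exon length of Adgre5, and the strand setting of the counting is not stated, so reads of the pair cannot be told apart there. Ddx39 itself had log2 fold changes of 0.22 ± 0.08 (adjusted p = 0.115) with shRad21_1, 0.56 ± 0.08 (adjusted p = 5.06e-04) with shRad21_2 and 0.34 ± 0.08 (adjusted p = 0.0139) between the hairpins. Adgrv1, a very large receptor of hair-cell and photoreceptor links that is mutated in Usher syndrome (chr13:81095068-81633154, minus strand), stood at 11.1, 12.3 and 12.05 CPM with shRad21_1, 8.81, 10.4 and 6.25 with shRad21_2 and 23.8, 21.6 and 21.1 with shNT. Every hairpin library lay below every shNT library. It fell with shRad21_1 (-0.91 ± 0.16, adjusted p = 0.00854) and with shRad21_2 (-1.38 ± 0.16, adjusted p = 1.53e-04), without a called difference between the hairpins (-0.48 ± 0.16, adjusted p = 0.0547). Celsr1, Celsr2 and Celsr3, the flamingo cadherins of planar cell polarity, were not called against shNT. Celsr2, the most abundant of them, stood at 61.5, 95.3 and 95.4 CPM with shRad21_1, 88.0, 119.8 and 77.2 with shRad21_2 and 118, 122 and 112 with shNT, and Celsr1 at 8.05, 13.7 and 13.7 CPM with shRad21_1, 11.6, 15.3 and 9.39 with shRad21_2 and 15.8, 17.7 and 18.8 with shNT. Celsr3 stood at 1.44, 3.28 and 2.37 CPM with shRad21_1, 6.02, 7.57 and 3.48 with shRad21_2 and 2.58, 4.39 and 3.50 with shNT, and was higher with shRad21_2 than with shRad21_1 (1.27 ± 0.35, adjusted p = 0.0263), a call lost without shRad21_1 replicate 3 (1.27) or shRad21_2 replicate 1 or 2 (1.22 and 1.01). Adgrf2 and Adgrf4, neighbours on chromosome 17, were low and were not called, at 0.0665 to 1.03 and 0.189 to 0.528 CPM over the 9 libraries.

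**Figure D3:**
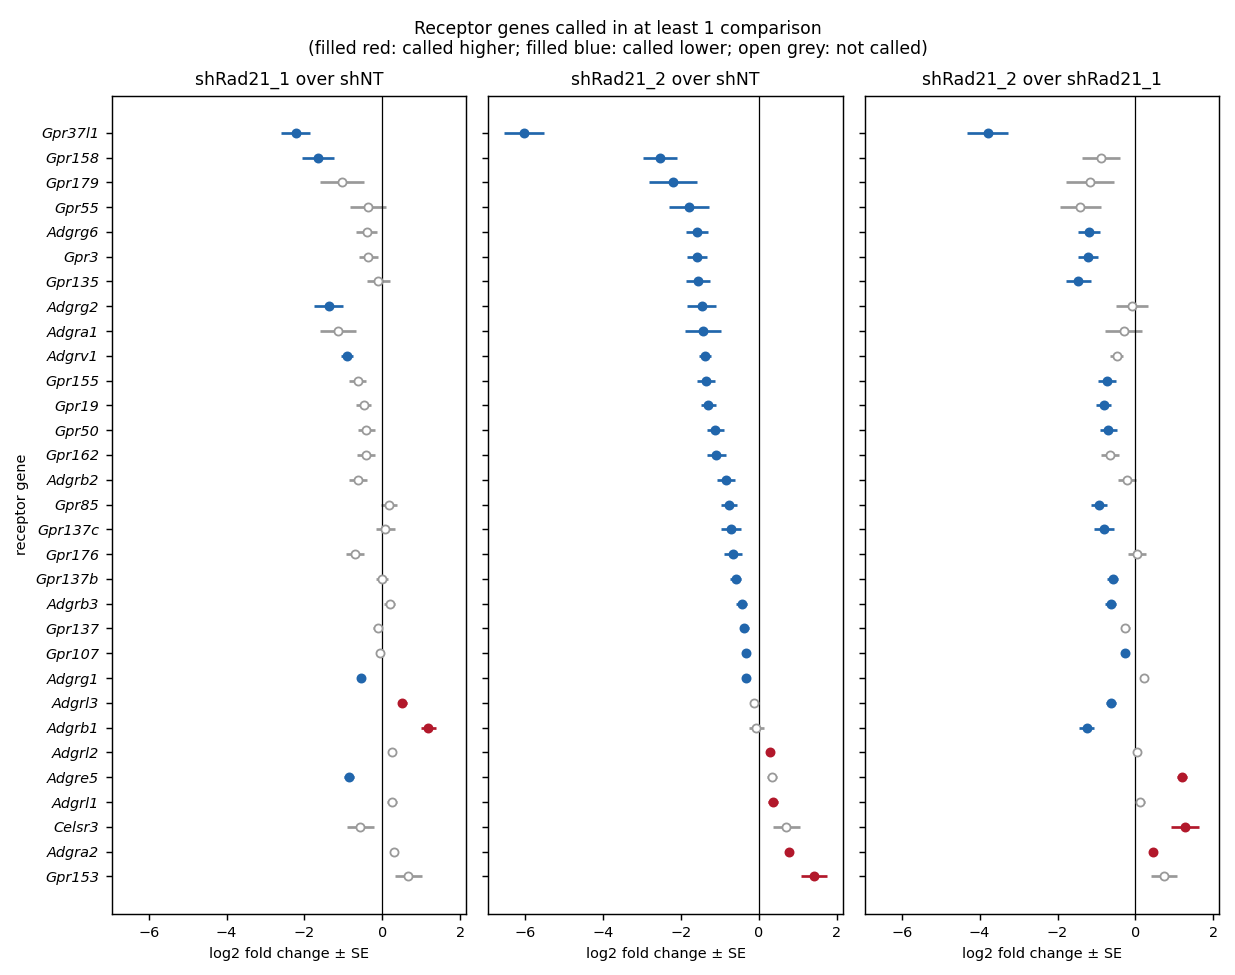
Log2 fold change with SE of the members called in at least 1 comparison, except Gpr17, which has no counts in shRad21_2; 1 panel per comparison on a shared axis. Filled red points passed the edgeR adjusted p threshold of 0.05 upwards and filled blue points downwards, open grey points did not pass, and most filled points for shRad21_2 over shNT lie left of 0.

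Of the 34 tested Gpr-numbered members, 1 rose and 17 fell with shRad21_2 (2.94% and 50%), against 21.1% and 22.5% of all genes. With shRad21_1, 0 rose and 2 fell (5.88%), against 4.19% and 5.63% of all genes, so the share that fell was near the background. Between the hairpins, 0 were higher and 11 lower (32.4%), against 11.9% and 14.4% of all genes. These differences in shares were not tested. Gpr162, a brain-enriched orphan, stood at 27.7, 55.9 and 58.0 CPM with shRad21_1, 26.0, 30.8 and 32.9 with shRad21_2 and 57.0, 65.7 and 68.1 with shNT. It fell with shRad21_2 (-1.09 ± 0.24, adjusted p = 0.00447) and was not called with shRad21_1 (-0.43 ± 0.23, adjusted p = 0.274). With shRad21_1 the first library was at about the shRad21_2 level and the others were near shNT. Its closest relative Gpr153 went the other way, with 7.04, 2.69 and 3.32 CPM with shRad21_1, 9.19, 6.72 and 5.82 with shRad21_2 and 2.42, 2.86 and 2.91 with shNT. It rose with shRad21_2 (1.41 ± 0.33, adjusted p = 0.00717), and the first shRad21_1 library lay with the shRad21_2 libraries. Gpr19 stood at 14.4, 24.5 and 24.7 CPM with shRad21_1, 10.7, 11.9 and 13.4 with shRad21_2 and 26.5, 31.1 and 31.2 with shNT, with every hairpin library below every shNT library. Gpr19 fell with shRad21_2 (-1.30 ± 0.19, adjusted p = 5.87e-04) and was lower there than with shRad21_1 (-0.82 ± 0.19, adjusted p = 0.0128). The difference between the hairpins was not called without shRad21_1 replicate 2 or 3 (-0.70 for both). An antisense gene, 2810454H06Rik, overlaps 9.25% of the exon length of Gpr19 and was itself at under 1 CPM in every library.

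Gpr3, a constitutively active activator of adenylyl cyclase known for holding oocytes in meiotic arrest, stood at 1.33, 1.47 and 1.17 CPM with shRad21_1, 0.620, 0.411 and 0.656 with shRad21_2 and 1.92, 1.68 and 1.51 with shNT. Gpr3 fell with shRad21_2 (-1.58 ± 0.26, adjusted p = 0.00102) and was lower there than with shRad21_1 (-1.22 ± 0.26, adjusted p = 0.00852). Gpr135, an orphan, stood at 0.951, 0.934 and 1.36 CPM with shRad21_1, 0.487, 0.381 and 0.285 with shRad21_2 and 1.13, 0.968 and 1.37 with shNT and fell with shRad21_2 (-1.57 ± 0.31, adjusted p = 0.00293), again below shRad21_1 (-1.47 ± 0.32, adjusted p = 0.0085). Gpr50, a relative of the melatonin receptors that does not bind melatonin, stood at 4.84, 3.23 and 2.87 CPM with shRad21_1, 2.502, 2.26 and 1.94 with shRad21_2 and 4.76, 5.26 and 4.55 with shNT. Gpr50 fell with shRad21_2 (-1.12 ± 0.22, adjusted p = 0.00261). Its difference between the hairpins (-0.70 ± 0.22, adjusted p = 0.0396) was -0.44 and not called without shRad21_1 replicate 1, nor on leaving out any other library but shRad21_1 replicate 3. Gpr85, of the brain-enriched SREB receptors, stood at 7.99, 4.96 and 4.68 CPM with shRad21_1, 3.26, 3.05 and 2.91 with shRad21_2 and 4.95, 5.00 and 5.74 with shNT. With shRad21_2 it fell (-0.77 ± 0.21, adjusted p = 0.015), and was not called at -0.69 without shNT replicate 3. It was lower there than with shRad21_1 (-0.93 ± 0.21, adjusted p = 0.0109), whose first library was the highest of all. Its relative Gpr173 was not called, with 4.32, 7.07 and 8.01 CPM with shRad21_1, 6.64, 5.95 and 4.22 with shRad21_2 and 7.26, 8.38 and 8.34 with shNT. Gpr55, a receptor for lysophosphatidylinositol, and Gpr176, an orphan of the circadian pacemaker, were low. Gpr55 ran from 0.177 to 0.957 CPM over the 9 libraries. Gpr176 stood at 0.951, 0.880 and 1.197 CPM with shRad21_1, 0.974, 1.056 and 1.08 with shRad21_2 and 1.51, 1.94 and 1.51 with shNT, every hairpin library below every shNT library. Gpr55 fell with shRad21_2 (-1.79 ± 0.52, adjusted p = 0.0179), but not without shNT replicate 2 (-1.71) or shRad21_2 replicate 1 or 3 (-1.66 and -1.76). It passed the filter on low counts only through shNT and shRad21_1, so this fall is in part built into its being tested. Gpr176 fell with shRad21_2 (-0.67 ± 0.23, adjusted p = 0.0386), a call lost on leaving out any library but shRad21_1 replicate 1 (values -0.73 to -0.54).

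**Figure D4:**
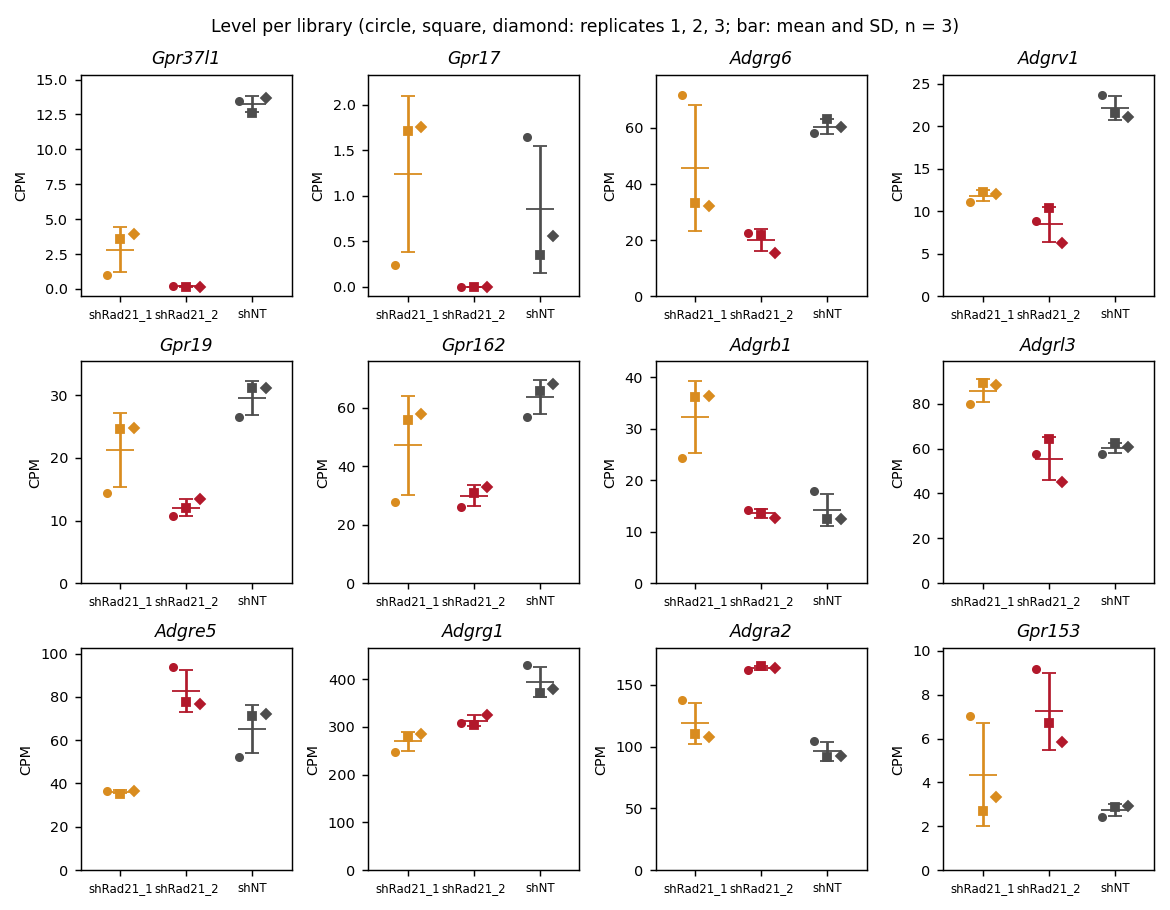
CPM in each library (circle, square and diamond for replicates 1, 2 and 3) of 12 members, 1 panel per gene with its own linear axis from 0 or just below it, for shRad21_1, shRad21_2 and shNT from left to right; horizontal bars are group means and vertical bars SD (n = 3). The first shRad21_1 library (circle) lies away from the other 2 for Gpr17, Adgrg6, Gpr19, Gpr162 and Gpr153, and Adgre5 shows shRad21_1 lowest and shRad21_2 highest.

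The glutamate-receptor-type orphans Gpr158 and Gpr179 are known as membrane anchors of RGS proteins, RGS7 among them; Gpr179 works in retinal bipolar cells and Gpr158 in the brain. Gpr158 (chr2:21367542-21830547, plus strand) stood at 0.245, 0.213 and 0.239 CPM with shRad21_1, 0.0664, 0.147 and 0.171 with shRad21_2 and 1.02, 0.590 and 0.621 with shNT. Every hairpin library lay below every shNT library, and it fell with shRad21_1 (-1.65 ± 0.40, adjusted p = 0.0287) and with shRad21_2 (-2.54 ± 0.44, adjusted p = 0.00131). The shRad21_1 call was lost without any single shNT library or without shRad21_1 replicate 2 or 3 (values -1.80 to -1.37). Gpr158 passed the filter on low counts only through shNT, so its fall in the other groups is in part built into its being tested. Gpr179 stood at 0.299, 1.89 and 1.65 CPM with shRad21_1, 0.620, 0.850 and 0.228 with shRad21_2 and 1.76, 2.93 and 3.15 with shNT, with 1 low library in each hairpin group. The fall with shRad21_2 (-2.20 ± 0.61, adjusted p = 0.0153) was a call lost at -1.84 without shRad21_2 replicate 3. Rgs7 itself was at 31.3 ± 8.43 CPM in shRad21_1, 7.0 ± 0.441 CPM in shRad21_2 and 67.5 ± 7.64 CPM in shNT, and fell with both hairpins (-1.11 ± 0.18, adjusted p = 0.00597 with shRad21_1 and -3.27 ± 0.20, adjusted p = 3.81e-06 with shRad21_2).

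Of 9 tested genes grouped as multi-pass proteins of the Golgi, endosome and lysosome, 5 fell with shRad21_2 (55.6%), against 22.5% of all genes. Among these 5, 1 fell by at least 2-fold. With shRad21_1, 0 fell, against 5.63% of all genes. The 9 include Gpr137b-ps, which is annotated as a transcribed pseudogene. Gpr107, a Golgi and endosome protein, stood at 69.6, 65.8 and 67.9 CPM with shRad21_1, 55.9, 56.5 and 56.0 with shRad21_2 and 72.7, 70.2 and 69.7 with shNT. The groups did not overlap. It fell with shRad21_2 (-0.34 ± 0.06, adjusted p = 0.00208) and was lower there than with shRad21_1 (-0.27 ± 0.06, adjusted p = 0.0118), a difference not called without shRad21_1 replicate 3 (-0.27). Gpr155, a cholesterol sensor of the lysosome, stood at 2.85, 3.90 and 4.95 CPM with shRad21_1, 2.64, 2.43 and 2.00 with shRad21_2 and 5.03, 6.33 and 6.74 with shNT and had the largest fall of the 9 with shRad21_2 (-1.35 ± 0.23, adjusted p = 0.00112). Its difference between the hairpins (-0.72 ± 0.23, adjusted p = 0.0408) was lost on leaving out any of 7 libraries (values -0.81 to -0.52). Gpr137, Gpr137b and Gpr137c are lysosomal membrane proteins. Gpr137b stood at 7.61, 8.88 and 10.8 CPM with shRad21_1, 5.58, 6.22 and 6.39 with shRad21_2 and 9.05, 9.04 and 9.36 with shNT and fell with shRad21_2 (-0.59 ± 0.15, adjusted p = 0.00843). It lost its call between the hairpins (-0.59 ± 0.15, adjusted p = 0.016) without shRad21_1 replicate 3 (-0.44). Gpr137b-ps is a near-identical copy that was not called, at 21.8, 18.7 and 19.1 CPM with shRad21_1, 17.8, 18.1 and 17.6 with shRad21_2 and 21.4, 19.4 and 16.8 with shNT. How reads were divided between the pair is uncertain. Gpr137 stood at 35.8, 39.1 and 40.7 CPM with shRad21_1, 33.7, 27.9 and 35.1 with shRad21_2 and 37.4, 44.9 and 43.3 with shNT and fell with shRad21_2 (-0.38 ± 0.11, adjusted p = 0.0204), a call lost without shNT replicate 2 or 3 (-0.32 and -0.35) or shRad21_2 replicate 2 (-0.28). The antisense gene Bad shares 15.4% of its exon length. Gpr137c stood at 1.77, 3.18 and 3.46 CPM with shRad21_1, 1.71, 1.73 and 1.37 with shRad21_2 and 2.61, 2.81 and 2.55 with shNT, the shRad21_2 libraries below all others. It fell with shRad21_2 (-0.73 ± 0.26, adjusted p = 0.0425) and was lower there than with shRad21_1 (-0.80 ± 0.26, adjusted p = 0.0438). These calls were lost on leaving out any of 7 and any of 8 libraries (values -0.78 to -0.63 and -0.86 to -0.62). Gpr108, Gpr180 and Gpr89 were not called, with log2 fold changes of 0.08, 0.05 and 0.05 with shRad21_2 and SEs of 0.09, 0.10 and 0.10.

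In all, 21 tested members were not called in any comparison. Besides those given above, they included Gpr161, a ciliary receptor that restrains Hedgehog signalling, at 11.8, 9.02 and 7.47 CPM with shRad21_1, 9.68, 10.4 and 7.76 with shRad21_2 and 8.50, 7.93 and 7.78 with shNT, and Gpr63 and Gpr157, at 1.15 to 3.26 and 0.819 to 2.01 CPM. The proton-sensing receptor Gpr4 was low, at 0.117 to 0.421 CPM, and Gpr146, Gpr15, Gpr182, Gpr62 and Gpr75, had values between -0.38 and 1.13 with shRad21_2. A p that misses the threshold does not show that these genes were alike between the groups. The 19 members too low to test had 10 to 89 counts over all 9 libraries. They include receptors of microglia and other myeloid cells (Gpr34, Gpr84 and Gpr183, with 28, 19 and 10 counts in all) and Gpr83, a receptor of neurons, with 37. Gpr149 had 3 counts summed over shRad21_1, 0 over shRad21_2 and 40 over shNT. It was at least 12.3-fold lower in shRad21_2 than in shNT against a floor of 3 counts over the group. The ratio of shNT to shRad21_1 was 12.05 (95% interval 3.84 to 60.9, exact, counting error only). Gpr61 had 12 counts over shRad21_1, 1 over shRad21_2 and 19 over shNT, a ratio of shNT to shRad21_2 of 17.5 (2.79 to 729). No test across libraries stands behind these ratios.

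The G proteins and regulators that work with these receptors were read from lists of known members. The counts stand beside 21.1% of all genes that rose and 22.5% that fell with shRad21_2, and 4.19% and 5.63% with shRad21_1. Of 11 tested alpha subunits, 2 rose and 3 fell with shRad21_2 (18.2% and 27.3%), near those shares. Gnai1, which inhibits adenylyl cyclase, rose (1.62 ± 0.13, adjusted p = 2.04e-05), as did Gnao1 (1.38 ± 0.25, adjusted p = 0.00184). Gna13 and Gna12, the subunits tied to Adgrg1 signalling, fell (-0.50 ± 0.09, adjusted p = 0.00163 and -0.43 ± 0.10, adjusted p = 0.00487). With shRad21_1, 1 rose, Gnai1 (1.199 ± 0.13, adjusted p = 9.93e-04), and 0 fell. Of 11 beta and gamma subunits, 3 rose and 3 fell with shRad21_2 (27.3% each), also near them, with Gng7 (-1.59 ± 0.17, adjusted p = 8.19e-05) and Gng11 (0.89 ± 0.18, adjusted p = 0.0034) the most clearly tested, and 0 rose and 1 fell with shRad21_1. Of 12 RGS proteins, 1 rose and 6 fell with shRad21_2, and 0 rose and 3 fell with shRad21_1. Beside Rgs7, these included Rgs17 (-2.32 ± 0.20, adjusted p = 2.39e-05), Rgs4 (-5.77 ± 0.83, adjusted p = 4.58e-04) and Rgs3 (-0.72 ± 0.12, adjusted p = 0.00134) with shRad21_2. Rgs4 was at 1.51 ± 1.19 CPM in shRad21_1, 0.0631 ± 0.0225 CPM in shRad21_2, about the level of 3 counts, and 3.53 ± 0.844 CPM in shNT.

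Of 8 receptor kinases and arrestins, 3 rose and 1 fell with shRad21_2, and 0 rose and 1 fell with shRad21_1. The kinase Adrbk2, also called GRK3, was at 47.03 ± 14.9 CPM in shRad21_1, 12.2 ± 1.59 CPM in shRad21_2 and 95.5 ± 5.75 CPM in shNT, and fell with both hairpins (-1.02 ± 0.19, adjusted p = 0.00971 and -2.97 ± 0.20, adjusted p = 6.99e-06, edgeR). Grk5 (0.62 ± 0.11, adjusted p = 0.00152), Arrb2 (0.44 ± 0.11, adjusted p = 0.00956) and Arrb1 (0.38 ± 0.10, adjusted p = 0.0141) rose with shRad21_2. Of 8 adenylyl cyclases, 3 rose and 2 fell with shRad21_2. Adcy8 (-1.33 ± 0.30, adjusted p = 0.00534) and Adcy9 (-0.59 ± 0.15, adjusted p = 0.0104) fell, and Adcy6 (0.45 ± 0.12, adjusted p = 0.0109) and Adcy5 (0.54 ± 0.16, adjusted p = 0.0187) were among those that rose. With shRad21_1, 1 rose and 0 fell. Of 23 ligands and binding partners of the members, 2 rose and 10 fell with shRad21_2, and 2 rose and 5 fell with shRad21_1. The 4 with the smallest p with shRad21_2 were Wnt7a and Wnt7b, given above, the basement membrane collagen Col4a1, a ligand of Adgrg6, and the prion protein gene Prnp, whose product also activates Adgrg6. Col4a1 was at 51.3 ± 4.08 CPM in shRad21_1, 23.8 ± 0.400 CPM in shRad21_2 and 72.4 ± 4.78 CPM in shNT, and fell by 0.50 with shRad21_1 (adjusted p = 0.00725) and by 1.60 with shRad21_2 (adjusted p = 2.78e-06) on the log2 scale. Prnp fell by 0.42 with shRad21_1 (adjusted p = 0.0072) and by 0.84 with shRad21_2 (adjusted p = 2.57e-05). The medians of these lists with shRad21_2 lay between -0.41 for RGS proteins and 0.40 for adenylyl cyclases, against 0.01 over all genes tested.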

How the data were processed

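The authors deposited raw counts per gene symbol for 9 RNA-seq libraries, whole numbers in every column. Per the submitters' processing notes, reads passed through FastQC, cutadapt and Trim Galore and were aligned and counted with Bowtie2 and RSEM on build mm10; their versions, the annotation and the strand setting are not stated in the labels or notes. Depth is given per library in the results; floors and intervals cover only counting error.

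The main test was edgeR's glmQLFTest (edgeR 4.0.16, R 4.3.3; TMM scaling, filterByExpr by group, 13560 genes, all 9 libraries in 1 fit of 3 group means, two-sided, Benjamini-Hochberg adjusted p under 0.05, no minimum fold). The SE is the fold change divided by the square root of F. On simulated data with the levels of the real genes and the sizes of the real libraries, 2-fold changes were recovered in 87.6% of 97 genes for shRad21_1 against shNT. The changed genes were above a minimum mean level, and the libraries were drawn independently with none set apart. The share therefore does not describe the lowest members or a group with an outlying library, as in shRad21_1. limma 3.58.1 (voom) and DESeq2 1.42.0 served as alternatives, with other scalings and filters, the replicate block, close libraries summed and each library left out.

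Members and gene lists were chosen with earlier results of these data known. All members could be named; values per library are given for members called with a mean log2 CPM of at least 0, for adhesion receptors at that level and for the 5 highest per kilobase, and from each list of partners the 4 genes with the smallest p with shRad21_2 could be named. Some lower members were named beside them after their values were seen. Same-numbered libraries of shNT and shRad21_1 deviated together (r of 0.242, 0.116 and 0.117 over genes). Replicates 2 and 3 did so across numbers too (0.160 and 0.154), above the same-numbered 0.116 and 0.117. The data thus do not show that the numbers pair these groups, and the labels do not say what a number shares. With shRad21_2 the values were under 0.1. Gene positions and exon lengths are from GENCODE M21 (GRCm38, the assembly of mm10) by symbol, all 72 placed, and promoters from RefSeq (GRCm38.p6), 50 matched. A few items are not reported here.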

Additional observations from a re-analysis of the deposited data

Results flagged for a closer look

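For 6 flagged members, the fitted values lay on opposite sides of shNT with the 2 hairpins and differed between the hairpins by the edgeR test. Celsr3 and Gpr17 met the same description and were not flagged. Celsr3 had values of -0.56 with shRad21_1 and 0.70 with shRad21_2, neither called. Gpr17 had a value of 0.55 with shRad21_1, not called, and no counts with shRad21_2. What follows is for the 6. The log2 fold change of shRad21_2 over shRad21_1 was -1.25 for Adgrb1, -0.63 for Adgrb3, 1.19 for Adgre5, -0.63 for Adgrl3, -0.80 for Gpr137c and -0.93 for Gpr85. Both contrasts with shNT share the same 3 shNT libraries, and the values on the smaller side were under 1.5 times their SE for Adgrb1, Adgrb3, Adgrl3, Gpr137c and Gpr85. Adgre5 had a value of -0.85 with shRad21_1 and 0.34 with shRad21_2 (not called).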

How the results depend on the processing

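None of the 8, 28 and 18 member calls changed sign under an alternative; 0 of 8 (shRad21_1 against shNT), 18 of 28 (shRad21_2 against shNT) and 7 of 18 (between the hairpins) held under every one, and 5, 18 and 10 held without each single library. With close libraries summed, 0 members rose and 0 fell in shRad21_1 against shNT, against 0.47% and 0.48% of all genes. With shRad21_2 against shNT, 2 rose and 18 fell, against 11.59% and 15.6% of all genes. Between the hairpins, 1 was higher and 7 lower, against 2.56% and 6.75%. Fewer samples enter that fit. With library totals in place of TMM, 2 members rose and 24 fell with shRad21_2. Of all genes, 15.98% then rose in place of 21.1%, and 26.11% fell in place of 22.5%. The cause was not tested. Requiring a fold of at least 2, 1 rose and 3 fell with shRad21_1, and 1 rose and 15 fell with shRad21_2. Between the hairpins, 2 were higher and 6 lower. Both directions together, these were 4, 16 and 8 of 53 members, against 425, 1754 and 961 of 13560 genes. Leaving out 1 library at a time, 1 to 2 members rose and 4 to 10 fell with shRad21_1. Of all genes, 1.26% to 4.69% rose and 2.1% to 6.97% fell in those fits. With shRad21_2, 2 to 6 members rose (2 without shNT replicate 3), against 14.07% to 24.27% of all genes. With the replicate block, 2 rose and 6 fell with shRad21_1 (4.54% and 6.05% of all genes), and 4 and 22 with shRad21_2 (21.78% and 22.95%). Between the hairpins, 3 were higher and 15 lower (12.29% and 14.57% of all genes). The block ended the calls of Adgrg2 with shRad21_1, of Gpr137c and Gpr176 with shRad21_2, and of Gpr137c and Gpr155 between the hairpins. The level of 3 counts was 0.0643 to 0.0863 CPM; Gpr17 was at 0 in every shRad21_2 library, where only a bound on its fold can be given.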
